A study of Arabidopsis thaliana with 34 samples.

Results

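The glycolysis genes examined here are 36 Arabidopsis loci, from hexokinase to pyruvate kinase, taken by name from the pathway. No measured value entered that rule, but earlier results of these data were known when it was set. The loci are not the whole pathway, and 18 glycolysis genes outside them are read further below. The array's probe annotation named 33 probe rows for 28 of them, within 26329 named rows and 24501 named genes of the deposited table. The other 8 loci had no named row and were not analysed here. They are the aldolase genes FBA3 (AT2G01140), FBA4 (AT5G03690), FBA5 (AT4G26530), FBA6 (AT2G36460), FBA7 (AT4G26520) and FBA8 (AT3G52930), and the phosphoglycerate mutase genes iPGAM1 (AT1G09780) and iPGAM2 (AT3G08590).

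Transcripts were measured by 3-colour microarray in shoots of 16-day-old Landsberg plants grown on agar under short days. The lines were C13, which carries Vitreoscilla haemoglobin (VHb, a bacterial oxygen-binding protein) in the cytosol, Mt62, which carries it in mitochondria, and the wild type (WT). Each transgene was represented by 1 line, and no source used here names the promoter driving it. Each line was exposed for 2 h or 24 h to hypoxia (4% O2, in sealed bags with an oxygen-consuming sachet) or for 2 h or 24 h to 500 µM of the nitric oxide (NO) donor DETA, and untreated controls were harvested at 0, 2 and 24 h. Treated plants remained able to photosynthesise, and every group had 4 replicate channels except C13 after 2 h of hypoxia, Mt62 at 0 h and WT after 2 h of DETA, for which the labels name 3.

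The authors' deposited table holds 34 differences between groups on a log scale, read here as log2 since no base is given, and no value of any single plant sample. A difference is listed only where the authors' empirical Bayes test gave an unadjusted p of at most 0.01, and a gene is called here where at least 1 of its rows is listed and its listed rows share a sign. An unlisted difference is therefore small against the error of its row and is not a measured zero. The smallest listed value of a row also sets an upper limit for its standard error, which is given below as "SE at most". All fold changes printed below are log2 values of the authors' deposited table unless they are said to be computed. Depth has no counterpart on an array, and the 3 or 4 channels a group limit the precision.

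Glycolysis splits hexoses into pyruvate and yields a little ATP and NADH. When respiration lacks oxygen, plant cells depend on it for ATP, and fermentation to ethanol or lactate returns the NAD+ that the glyceraldehyde-3-phosphate dehydrogenase (GAPDH) step uses up. Plants run the pathway both in the cytosol and in plastids, and several plastid enzymes of the same reactions also serve the Calvin cycle or the synthesis of fatty acids. Phosphofructokinase (PFK) and pyruvate kinase, which catalyse its nearly irreversible steps, are the usual points of control.

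Of the 952 member differences that the table could hold, 186 were listed, which is 19.5%, against 13.5% for all named genes. All named genes, here and below, are counted whatever their expression, and 13389 of the 34558 probe rows were never listed. The table holds no levels, so members and other genes could not be matched for expression. The count per gene ran from 0 to 14 of 34 comparisons, with a median of 6, and the median over all named genes was 3. HXK2 was listed most often, in 14 comparisons, followed by PFK3 in 13 and PFK6 in 12. The cytosolic PFK2 (AT5G47810) and the cytosolic enolase ENO2 (AT2G36530, also LOS2) were never listed. The plastid aldolase FBA2 (AT4G38970) and the plastid pyruvate kinase subunit PKP-alpha (AT3G22960) were each listed in 1 comparison, both against the 0 h control. FBA2 stood at -1.21 in WT after 24 h of hypoxia (SE at most 0.47), and PKP-alpha at 0.58 in C13 after 2 h of DETA (SE at most 0.22). The heat map of all comparisons shows that listed values cluster in the hypoxia columns and in the columns of 2 h of DETA against the 0 h control.

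**Figure D1:**
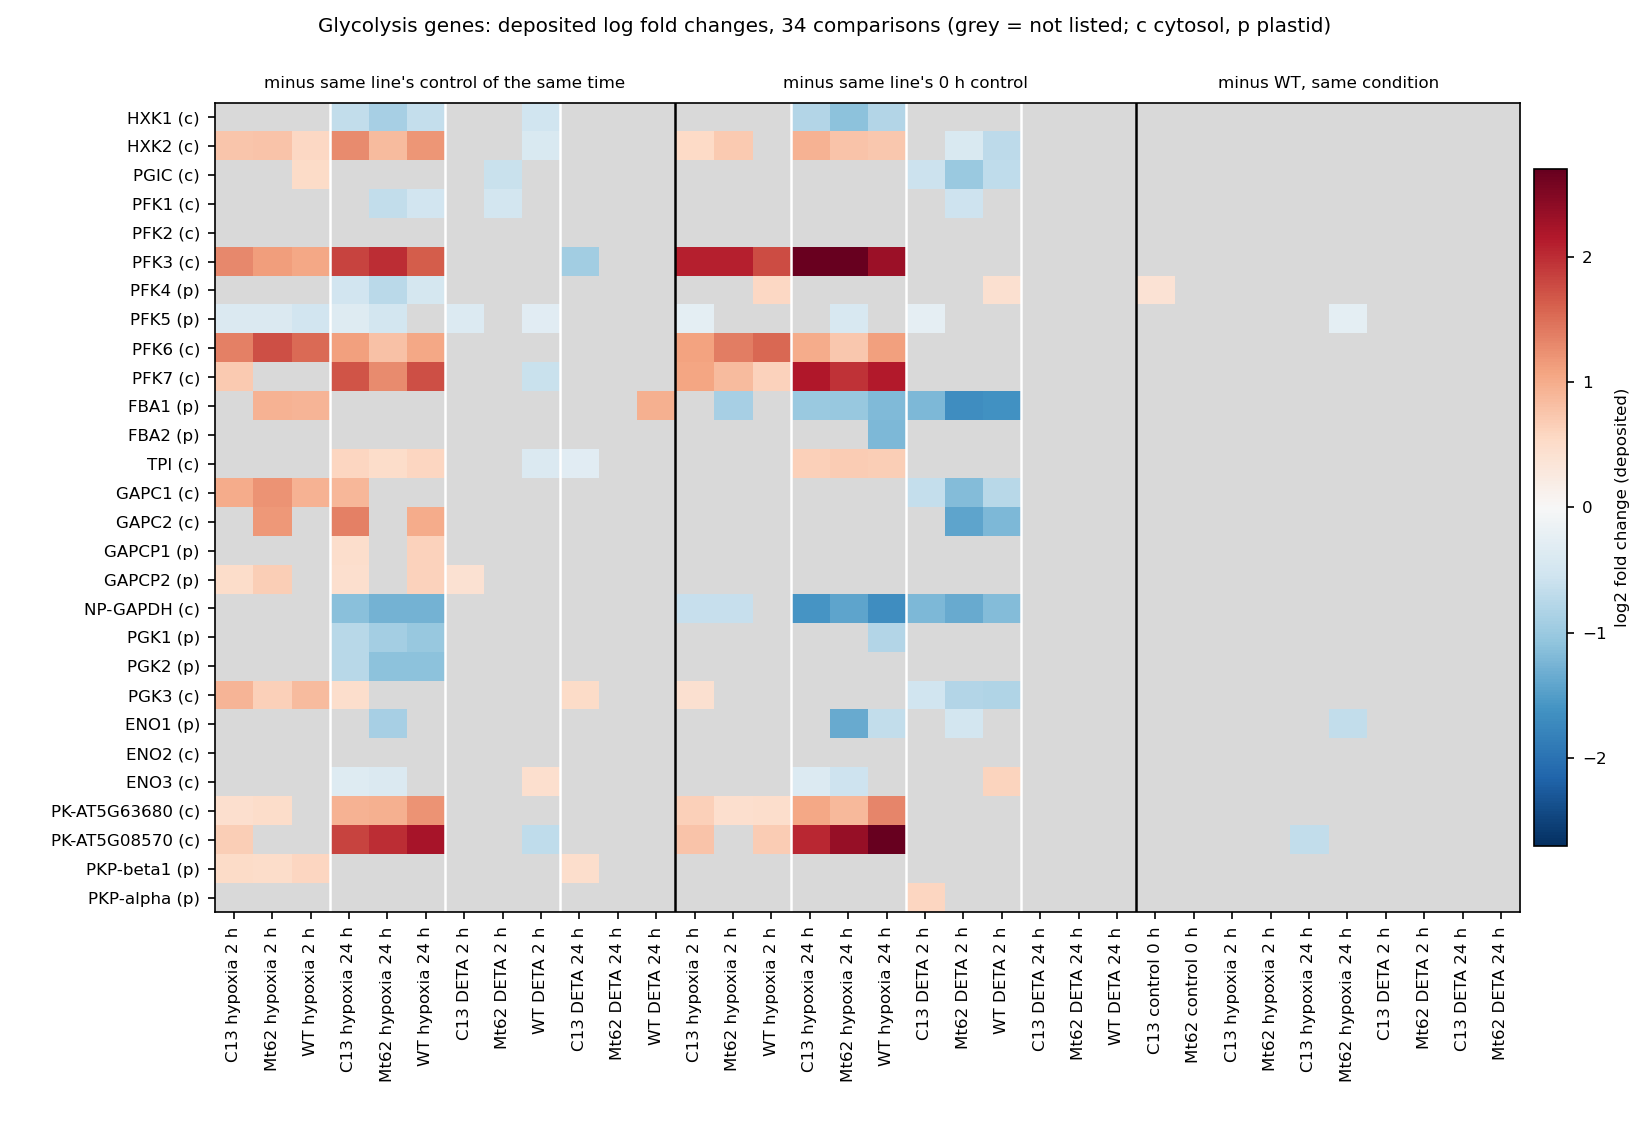
Log2 fold changes of the 28 measured glycolysis genes (rows, in pathway order, c for cytosol and p for plastid) in the 34 comparisons of the deposited table (columns); red is higher and blue lower in the first-named group, and grey is not listed. PFK2 and ENO2 are grey throughout, and the comparisons with WT on the right hold 4 listed values.

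After 2 h of hypoxia glycolysis genes rose far more often than they fell. Against the control of the same time 10 of 28 members rose in C13, 10 in Mt62 and 8 in WT, while over all named genes 9.68%, 9.38% and 8.24% rose in these lines. A single member fell in each line, the plastid PFK5, against 10.4% of all named genes in C13, 10% in Mt62 and 9.92% in WT. Together 6 of 28 members rose in all 3 lines (background 5.4%), and 1 fell in all 3 (background 6.1%). The risen members had a median of 0.73 in C13, 0.86 in Mt62 and 0.89 in WT, beside 0.66, 0.64 and 0.65 over all named genes that rose in these lines.

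PFK6 had the highest early value in each line. The phosphofructokinase gene PFK6 (AT4G32840) stood at 1.35 in C13, 1.73 in Mt62 and 1.53 in WT (SE at most 0.28 in each). PFK3 (AT4G26270), which encodes another cytosolic isoform, stood at 1.31 in C13, 1.14 in Mt62 and 1.05 in WT (SE at most 0.39). In PFK3 the 3 lines lay within the error of a single line, and in PFK6 C13 was lowest and Mt62 highest. HXK2 (AT2G19860), a hexokinase, which phosphorylates glucose as it enters the pathway, stood at 0.74 in C13, 0.78 in Mt62 and 0.55 in WT (SE at most 0.16). PFK7 (AT5G56630), also cytosolic, was listed in C13 alone, at 0.72 (SE at most 0.23). The cytosolic phosphoglucose isomerase PGIC (AT5G42740), which turns glucose 6-phosphate into fructose 6-phosphate, was listed in WT alone, at 0.52, through 1 of its 2 rows. The hexokinase and glucose sensor HXK1 (AT4G29130) was not listed at this time.

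In the payoff phase GAPC1 and PGK3 rose in all 3 lines, while the other cytosolic GAPDH genes were listed in Mt62 alone (GAPC2) or in no line (NP-GAPDH). GAPC1 (AT3G04120), of the cytosolic GAPDH that makes NADH, stood at 1.01 in C13, 1.22 in Mt62 and 0.95 in WT (SE at most 0.27). Its close relative GAPC2 (AT1G13440) was listed only in Mt62, at 1.16, and an unlisted value of its row in a comparison of 4 with 4 channels lies below about 0.99. PGK3 (AT1G79550), of the cytosolic phosphoglycerate kinase that forms ATP, stood at 0.91 in C13, 0.65 in Mt62 and 0.86 in WT (SE at most 0.17). The cytosolic pyruvate kinase gene AT5G63680 stood at 0.46 in C13 and 0.50 in Mt62, and its relative AT5G08570 at 0.66 in C13, with no other line listed. No probe sequences are in the files used here, so how well the probes of GAPC1 and GAPC2, or of PGK1 and PGK2, tell these similar genes apart was not tested.

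Of the plastid members PKP-beta1 rose in all 3 lines, GAPCP2 and FBA1 rose in some, and PFK5 fell. PKP-beta1 (AT5G52920), a subunit of the plastid pyruvate kinase that feeds fatty acid synthesis, stood at 0.52 in C13, 0.51 in Mt62 and 0.58 in WT (SE at most 0.20). Its calls were lost when p-values from the limit of the standard error were adjusted over all rows, which left 5 of the 6 genes. Such p-values are upper limits, so a lost call is not shown to be false. GAPCP2 (AT1G16300), of a plastid GAPDH, stood at 0.50 in C13 and 0.65 in Mt62. FBA1 (AT2G21330), an aldolase of chloroplasts, stood at 0.94 in Mt62 and 0.92 in WT, and against the 0 h control its sign was turned, as given below. PFK5 (AT2G22480), a plastid phosphofructokinase, was the 1 gene to fall, at -0.38 in C13, -0.40 in Mt62 and -0.51 in WT (SE at most 0.10), through 1 of its 2 rows; the other row was never listed.

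**Figure D2:**
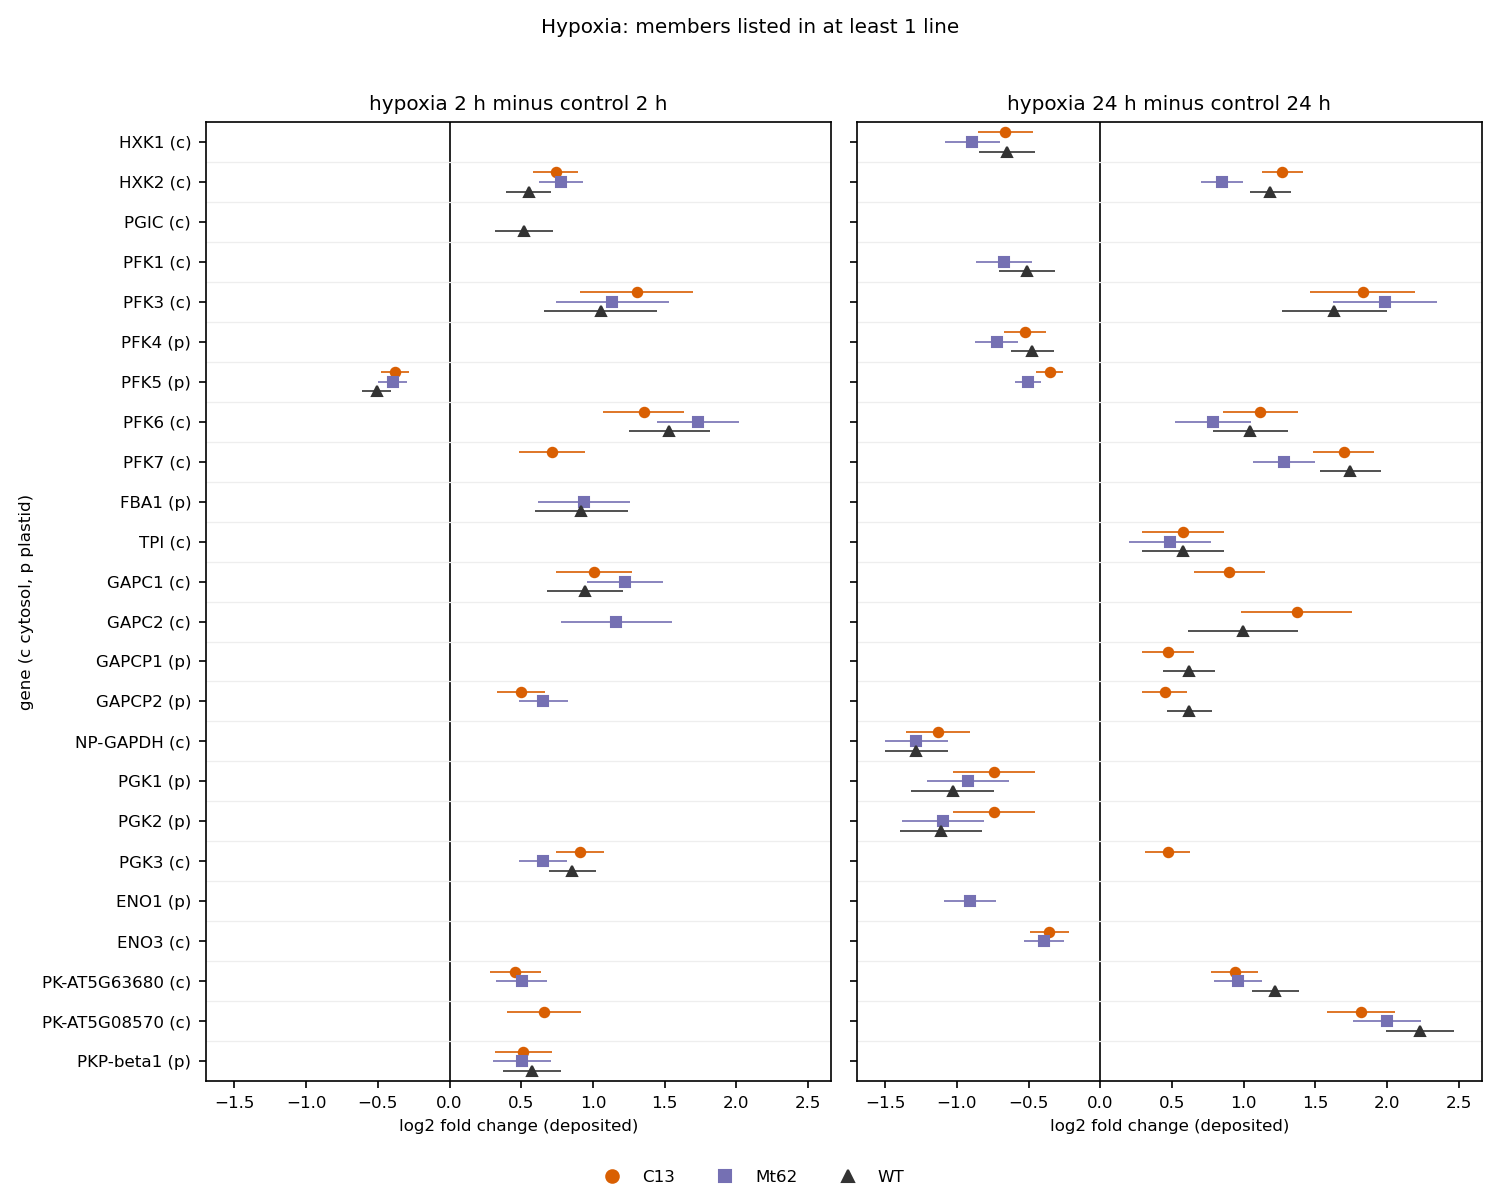
Log2 fold changes of the 24 glycolysis genes listed in at least 1 line under hypoxia for 2 h (left) and 24 h (right), each minus the control of the same time; points are C13, Mt62 and WT, bars the upper limit of the standard error, and a missing point is not listed. PFK5 is the 1 gene below 0 at 2 h, while at 24 h 9 genes lie below 0 and the pyruvate kinase gene AT5G08570 reaches 2.23 in WT.

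After 24 h of hypoxia both rises and falls were listed. HXK2, PFK3, PFK6, PFK7, TPI and the pyruvate kinase genes AT5G63680 and AT5G08570 rose in all 3 lines, and HXK1, PFK4, NP-GAPDH, PGK1 and PGK2 fell in all 3. In C13 12 of 28 members rose, in Mt62 7 and in WT 10, against 17.5%, 15.1% and 18.8% of all named genes. In C13 7 members fell, in Mt62 9 and in WT 6, against 17.1%, 15.8% and 17% of all named genes. Together 7 of 28 members rose in all 3 lines (background 11.5%) and 5 of 28 fell in all 3 (background 11%). No gene that rose in any line at 2 h fell in any line at 24 h. The median of the risen members was 1.03 in C13, 0.96 in Mt62 and 1.12 in WT, beside 0.76, 0.77 and 0.75 over all risen genes.

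The pyruvate kinase gene AT5G08570 had the highest mean at 24 h. It stood at 1.82 in C13, 2.00 in Mt62 and 2.23 in WT (SE at most 0.24). The other cytosolic pyruvate kinase gene, AT5G63680, stood at 0.94 in C13, 0.96 in Mt62 and 1.22 in WT (SE at most 0.16). In both genes C13 was lowest and WT highest, and in AT5G63680 the difference between the transgenic lines was far below the error. Next to AT5G08570 came PFK3, at 1.83 in C13, 1.99 in Mt62 and 1.63 in WT (SE at most 0.36), with means over lines of 2.02 for AT5G08570 and 1.82 for PFK3 that differ by less than 1 such error. PFK7 followed with 1.70 in C13, 1.28 in Mt62 and 1.74 in WT (SE at most 0.21).

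HXK2 and PFK6 rose at both times. HXK2 stood at 1.27 in C13, 0.85 in Mt62 and 1.19 in WT (SE at most 0.14), with Mt62 the lowest line. PFK6 stood at 1.11 in C13, 0.79 in Mt62 and 1.05 in WT (SE at most 0.26), again with Mt62 lowest. TPI (AT3G55440), of the cytosolic triose phosphate isomerase that lets the whole of a split hexose enter the later steps, averaged 0.58 in C13, 0.49 in Mt62 and 0.58 in WT over the listed ones of its 3 rows. These rows ran from 0.38 to 0.81 in C13, and a single row was listed in Mt62, so the call in all 3 lines ended when every row had to be listed.

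Among GAPDH genes the late picture was mixed. GAPC1 was listed in C13 alone, at 0.90, and unlisted values of its row lie below about 0.63. GAPC2 stood at 1.37 in C13 and 0.99 in WT, and was unlisted in Mt62. The plastid GAPCP1 (AT1G79530) stood at 0.47 in C13 and 0.62 in WT, and GAPCP2 at 0.45 in C13 and 0.62 in WT. All 4 genes were thus listed in C13 and none of them in Mt62, but the responses of these lines were not tested against each other, and with Mt62 unlisted its response could not be tested against that of WT. PGK3, up in every line at 2 h, was listed only in C13 at 24 h, at 0.47 (SE at most 0.15).

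The falling members came from both compartments. NP-GAPDH (AT2G24270), a cytosolic non-phosphorylating GAPDH that makes NADPH and bypasses the step in which phosphoglycerate kinase forms ATP, stood at -1.13 in C13, -1.28 in Mt62 and -1.28 in WT (SE at most 0.22). PGK2 (AT1G56190) stood at -0.74 in C13, -1.10 in Mt62 and -1.11 in WT, and PGK1 (AT3G12780) at -0.74 in C13, -0.92 in Mt62 and -1.03 in WT (SE at most 0.29 for each gene). Both encode plastid phosphoglycerate kinases, which in leaves serve the Calvin cycle. HXK1 stood at -0.66 in C13, -0.89 in Mt62 and -0.65 in WT (SE at most 0.19), opposite in sign to HXK2. PFK4 (AT5G61580), a plastid phosphofructokinase, stood at -0.52 in C13, -0.72 in Mt62 and -0.48 in WT (SE at most 0.15).

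Further falls were listed in some lines only. PFK1 (AT4G29220), a cytosolic phosphofructokinase, stood at -0.67 in Mt62 and -0.51 in WT. PFK5 stood at -0.35 in C13 and -0.50 in Mt62. The enolase genes, whose product forms phosphoenolpyruvate, had no listed rise under hypoxia. The plastid ENO1 (AT1G74030) stood at -0.91 in Mt62 and ENO3 (AT2G29560) at -0.36 in C13 and -0.39 in Mt62.

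Isoforms of the same step moved in opposite directions. Of the 7 phosphofructokinase genes, the cytosolic PFK3, PFK6 and PFK7 rose in all lines at 24 h, the plastid PFK4 fell in all lines, PFK1 and PFK5 fell in some, and PFK2 was never listed. By compartment 9 of 17 measured cytosolic members rose in all 3 lines at 2 h or 24 h, and 1 of 11 measured plastid members did, PKP-beta1, against 13.8% of all named genes. At 24 h 7 cytosolic members rose and 2 fell in all 3 lines, and 0 plastid members rose and 3 fell. Compartments were assigned gene by gene and not measured here, with HXK1 and HXK2 counted as cytosolic. These counts describe the measured genes, and the difference between compartments was not tested.

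**Figure D3:**
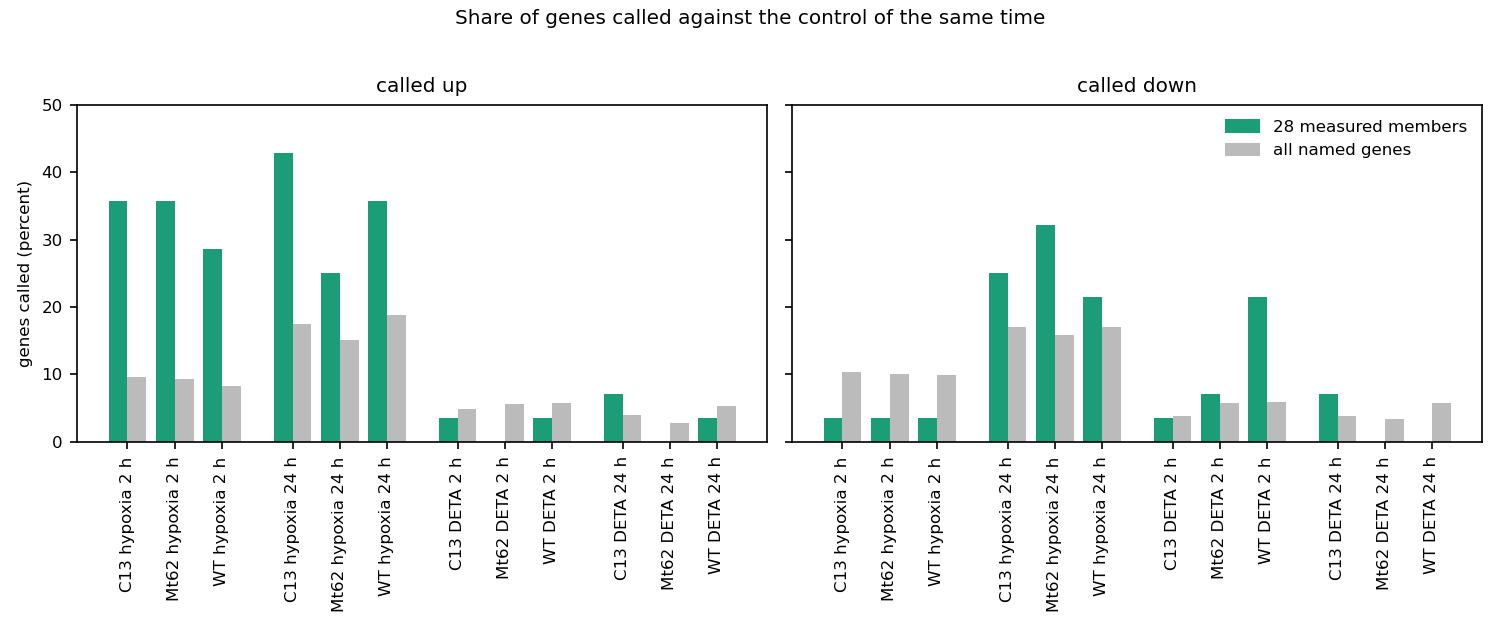
Percent of the 28 measured glycolysis genes (green) and of all 24501 named genes (grey) called up (left) and down (right) against the control of the same time, in each line and treatment. The green bars stand above the grey ones for rises under hypoxia in all lines, and the members' falls at 2 h of hypoxia stand below the background.

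Timing was compared within lines where the table gave both responses, a comparison chosen after the values were seen. The response at 24 h minus that at 2 h was tested over its largest possible error, with Benjamini-Hochberg adjustment over 14760 row differences in 6 comparisons, of which 19.3% passed at 0.05. Of 19 member differences 3 passed, and all 3 were higher at 24 h of hypoxia. The pyruvate kinase gene AT5G08570 differed by 1.16 in C13 (SE at most 0.35), PFK7 by 0.98 in C13 (SE at most 0.32) and HXK2 by 0.63 in WT (SE at most 0.20). HXK2 in C13 differed by 0.53 (SE at most 0.21) and in Mt62 by 0.07 (SE at most 0.20), and neither passed. PFK6 had the opposite order in each line, at -0.24 in C13, -0.95 in Mt62 and -0.49 in WT, none of which passed (SE at most 0.39). The 15.8% of member differences that passed lie near the background.

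By their calls the genes that rose in all 3 lines fall into 3 sets. HXK2, PFK3 and PFK6 were called at both times. GAPC1, PGK3 and PKP-beta1 were called at 2 h but not in all lines at 24 h. PFK7, TPI and both cytosolic pyruvate kinase genes were called at 24 h but not in all lines at 2 h. These sets rest on listing and are not tested changes with time. In C13 the response at 24 h minus that at 2 h was -0.11 for GAPC1 (SE at most 0.36) and -0.44 for PGK3 (SE at most 0.23). For AT5G63680 it was 0.48 in C13 and 0.46 in Mt62. None of these differences passed. PKP-beta1 was unlisted in all lines at 24 h of hypoxia, where its values lie below about 0.48. PFK2, FBA2, ENO2 and PKP-alpha were listed at neither time.

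The NO donor gave few listed values against the control of the same time, which is the same control group that the hypoxia values of that line and time were set against. After 2 h of DETA 1 member rose in C13, 0 in Mt62 and 1 in WT, against 4.82%, 5.68% and 5.81% of all named genes. In C13 1 member fell, in Mt62 2 and in WT 6, against 3.84%, 5.69% and 5.92%. No member rose in all 3 lines (background 2.47%) and none fell in all 3 (background 1.86%). The WT share of falls stood above its background and those of the transgenic lines near theirs, and no test of that difference could be made for most of these genes, since their values were unlisted in C13 and Mt62.

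The falls in WT ran through the upper and the last steps. In WT HXK1 stood at -0.54, HXK2 at -0.40, PFK7 at -0.60, TPI at -0.39 in 1 of its 3 rows and the pyruvate kinase gene AT5G08570 at -0.68. PFK5 stood at -0.37 in C13 and -0.31 in WT. In Mt62 PGIC stood at -0.60 and PFK1 at -0.50. The rises were GAPCP2 at 0.40 in C13 and ENO3 at 0.45 in WT.

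After 24 h of DETA even fewer were listed. In C13 2 members rose, in Mt62 0 and in WT 1, against 3.99%, 2.72% and 5.32% of all named genes. In C13 2 fell, in Mt62 0 and in WT 0, against 3.89%, 3.32% and 5.8%. None rose in all lines (background 1.02%) and none fell in all lines (background 1.66%). In C13 PFK3 stood at -0.94 (SE at most 0.36), TPI at -0.31, PGK3 at 0.52 and PKP-beta1 at 0.48. In WT FBA1 stood at 0.97 (SE at most 0.32). Against the 0 h control no member was listed in any line at this time, where 0.216% of named genes rose and 0.159% fell in all 3 lines.

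**Figure D4:**
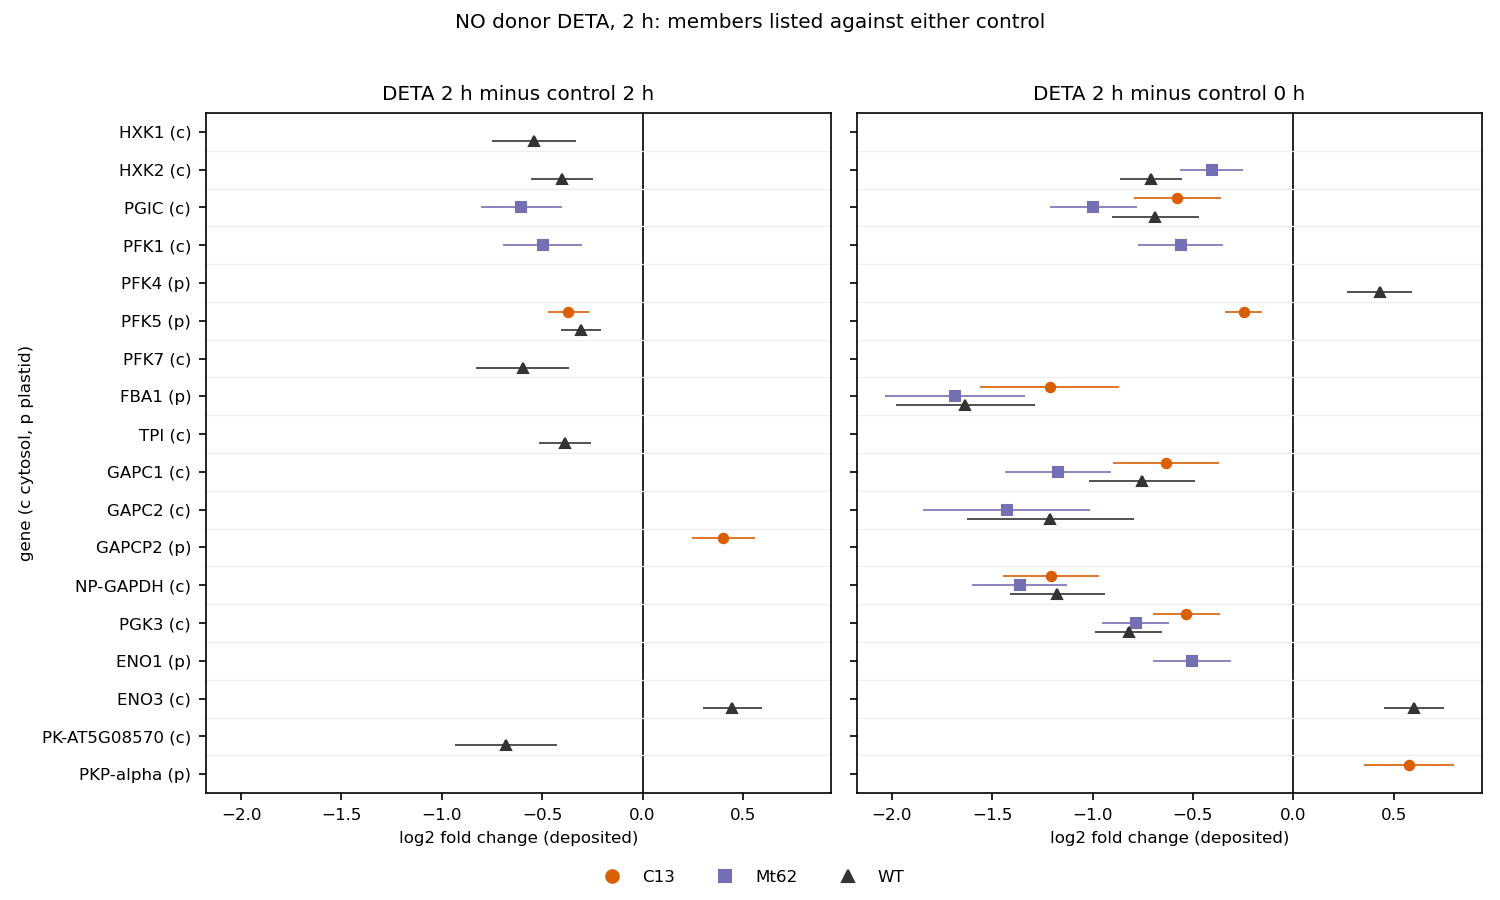
Log2 fold changes after 2 h of DETA minus the control of 2 h (left) and minus the control of 0 h (right) for the 18 glycolysis genes listed in either; points are C13, Mt62 and WT, and bars the upper limit of the standard error. PGIC, FBA1, GAPC1, NP-GAPDH and PGK3 lie below 0 in all 3 lines on the right, and of these PGIC in Mt62 is the 1 point on the left.

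Against the 0 h control 2 h of DETA gave more falls. In that comparison 5 of 28 members fell in all 3 lines (background 3.98%) and 0 rose (background 4.22%). FBA1 stood at -1.21 in C13, -1.69 in Mt62 and -1.63 in WT (SE at most 0.35). NP-GAPDH stood at -1.21 in C13, -1.36 in Mt62 and -1.18 in WT (SE at most 0.24). GAPC1 stood at -0.63 in C13, -1.17 in Mt62 and -0.75 in WT (SE at most 0.27). PGIC stood at -0.58 in C13, -0.996 in Mt62 and -0.69 in WT, and PGK3 at -0.53 in C13, -0.78 in Mt62 and -0.82 in WT. GAPC2 fell in Mt62 (-1.43) and WT (-1.21). FBA1, NP-GAPDH, GAPC1, GAPC2 and PGK3 were unlisted in all lines when the same treated plants were set against the control of 2 h. A difference from the 0 h control holds both the treatment and the 2 h that passed, and these cannot be told apart in it.

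Under 24 h of hypoxia the same 7 members rose in all 3 lines against either control (background 12% against 0 h). Calls in single lines did depend on it, since in C13 7 members rose against 0 h and 12 against the 24 h control, and in WT 7 and 10. GAPC1, GAPC2, GAPCP1, GAPCP2 and PGK3 were listed in some line against the 24 h control and in none against 0 h. Against 0 h 3 members fell in all lines (background 11.8%), namely HXK1, NP-GAPDH and FBA1, the last at -1.01 in C13, -1.03 in Mt62 and -1.19 in WT. Of the genes that had fallen against the 24 h control, PFK4 and PGK2 were listed in no line against 0 h. PGK1 was listed in WT alone, at -0.79. At 2 h 4 members rose in all lines against 0 h (background 5.29%), of which PFK3 and PFK6 also rose against the control of 2 h, while PFK7 and AT5G63680 came in and HXK2, GAPC1, PGK3 and PKP-beta1 dropped out. None fell in all lines (background 6.33%). The genes that dropped out differed: HXK2 was still listed against 0 h in C13 (0.55) and Mt62 (0.70). PGK3 was listed in C13 alone (0.43), and GAPC1 and PKP-beta1 in no line. PFK3 was higher against 0 h than against the matched control, with 2.10 in C13, 2.10 in Mt62 and 1.76 in WT at 2 h, and 2.67, 2.71 and 2.31 in these lines at 24 h (SE at most 0.39). FBA1 was the 1 member whose listed values had opposite signs: in Mt62 after 2 h of hypoxia it stood at 0.94 against the control of 2 h and at -0.90 against that of 0 h.

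The untreated controls themselves moved, by values computed here as the difference between deposited columns and given without a test. FBA1 in Mt62 was lower by 1.84 in the control of 2 h than in that of 0 h, a computed change of -1.84 (SE at most 0.35). PFK3 was higher in the control of 2 h than in that of 0 h, by 0.79 in C13, 0.97 in Mt62 and 0.71 in WT, and in the control of 24 h by 0.84 in C13, 0.72 in Mt62 and 0.68 in WT (SE at most 0.39). PFK7 was higher in the control of 24 h by 0.46 in C13, 0.67 in Mt62 and 0.40 in WT. HXK2 went the other way at 24 h, at -0.32 in C13, -0.09 in Mt62 and -0.46 in WT. NP-GAPDH stood at -0.46 in C13, -0.15 in Mt62 and -0.40 in WT in the control of 24 h. PGK3 in C13 was lower in the control of 2 h than in that of 0 h, at -0.48 (SE at most 0.15). For PGK3 this could not be computed in Mt62 or WT.

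Hypoxia was also set directly against DETA at the same time and in the same line, where the table gave the difference, again as a comparison chosen after the values were seen. With Benjamini-Hochberg adjustment over 14493 row differences in 6 comparisons, 39.6% passed at 0.05. Of 13 member differences, from 9 genes, 8 passed, from 6 genes, which is 61.5%, and all 8 were higher under hypoxia. A difference could be computed only from listed values, for members and for all rows alike. HXK2, PGK3, PFK3 and TPI were listed with opposite signs under hypoxia and DETA against a shared control, so their differences were bound to pass. The background share counts both directions. The members' share and their common direction are therefore given as description only. HXK2 at 2 h was higher under hypoxia than under DETA by 1.11 in Mt62 (SE at most 0.14) and by 0.96 in WT (SE at most 0.16). PGK3 at 2 h was higher by 0.96 in C13 (SE at most 0.17). NP-GAPDH at 2 h was higher by 0.59 in C13 (SE at most 0.24) and by 0.73 in Mt62 (SE at most 0.22), and FBA1 in Mt62 by 0.79 (SE at most 0.32). For NP-GAPDH and FBA1 this was a smaller fall from the 0 h control, since both treatments lay below it. Against 0 h NP-GAPDH stood at -0.61 under hypoxia and -1.21 under DETA in C13, and at -0.63 and -1.36 in Mt62. FBA1 in Mt62 stood at -0.90 under hypoxia and -1.69 under DETA. At 24 h in C13 PFK3 differed by 2.77 (SE at most 0.36) and TPI, in 1 row, by 0.69 (SE at most 0.12). PFK5 in C13 at 2 h differed by -0.01 (SE at most 0.10) and did not pass, with listed falls of -0.38 under hypoxia and -0.37 under DETA.

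Whether VHb altered the glycolysis genes was asked by comparing each transgenic line with WT under 5 conditions. In C13 2 of 28 members were called in at least 1 condition, against 10.8% of all named genes, and in Mt62 2 of 28, against 10.2%, so that neither count exceeded its background. In C13 the plastid PFK4 was 0.38 above WT in the untreated plants at 0 h (SE at most 0.15). The pyruvate kinase gene AT5G08570 in C13 was at -0.66 against WT after 24 h of hypoxia (SE at most 0.24). In Mt62 after 24 h of hypoxia PFK5 was at -0.27 against WT (SE at most 0.09, in 1 of its 2 rows) and ENO1 at -0.66 (SE at most 0.18). None of the 4 calls was left when p-values from the limit of the standard error were adjusted over all rows. Such p-values are upper limits, so the loss does not show that the calls were false. For PFK4 the value of 0.38 was itself the smallest listed of its row and set that limit.

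The difference between lines in the response itself was tested where both responses were listed or could be computed, which gave 47 member differences from 21 genes, nearly all of them under hypoxia. Over all rows 31557 such differences were tested in 8 comparisons and 0.101% passed Benjamini-Hochberg adjustment, and no member did. The members' differences had a median size of 0.15 and a largest size of 0.46, that of PFK7, whose response to 24 h of hypoxia in Mt62 minus that in WT was -0.46 (widest 95% interval -1.07 to 0.14). For AT5G08570 the response to 24 h of hypoxia in C13 minus that in WT was -0.41 (widest 95% interval -1.08 to 0.26). The half-width of these intervals ran from 0.26 to 1.09 with a median of 0.55, so differences of that size would not have been detected. The intervals were not adjusted for the 31557 differences, so the adjusted test could also miss differences larger than that. A gene listed in one line and unlisted in another gives no such difference, so GAPC1 and PGK3 at 24 h of hypoxia and most DETA values could not be tested.

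Genes around the pathway were read for comparison from lists of the same kind. Of 13 genes of sucrose breakdown and fermentation, 6 rose in all 3 lines at 2 h of hypoxia (background 5.4%) and 8 at 24 h (background 11.5%). The pyruvate decarboxylase gene PDC1 (AT4G33070), which starts ethanol fermentation, stood at 4.78 in C13, 4.73 in Mt62 and 5.21 in WT at 24 h (SE at most 1.51), and the alcohol dehydrogenase gene ADH1 (AT1G77120) at 4.08 in C13, 4.31 in Mt62 and 3.99 in WT (SE at most 1.27). Sucrose synthases open sucrose for glycolysis: SUS1 (AT5G20830) averaged 1.58 over the lines at 2 h and 1.48 at 24 h, and SUS4 (AT3G43190) 1.19 at 24 h. Values of PDC1 and ADH1 exceeded those of every glycolysis member in the same comparison. Under DETA 1 gene of this list rose (background 2.47%) and 1 fell (background 1.86%) in all lines at 2 h, the neutral invertase gene CINV1 (AT1G35580, mean 0.76) and the sucrose synthase gene SUS3 (AT4G02280, mean -0.93).

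Glycolysis genes outside the 36 loci gave a further view. Of 18 such genes 3 rose in all lines at 2 h of hypoxia (background 5.4%) and 1 at 24 h, a share below the background of 11.5%. The gene of 24 h was another pyruvate kinase gene, AT2G36580, at 2.52 in C13, 3.03 in Mt62 and 2.99 in WT (SE at most 0.49). Under DETA 2 of the 18 rose in all lines at 2 h (background 2.47%) and 2 at 24 h (background 1.02%). Those of 24 h are subunits of the pyrophosphate-dependent phosphofructokinase, which uses pyrophosphate in place of ATP: PFP-beta1 (AT1G12000) averaged 0.62 and PFP-alpha1 (AT1G20950) 0.59 over the lines. At 2 h PFP-beta1 averaged 0.40, and the hexokinase gene HXK3 (AT1G47840) 0.51. Against the 0 h control PFP-beta1 stood at -0.43 in Mt62 after 2 h of DETA, opposite in sign, and PFP-alpha1 at -0.61 in Mt62 and -0.45 in WT. Both genes also rose in all lines at 2 h of hypoxia against the control of the same time, with means of 0.49 for PFP-beta1 and 0.48 for PFP-alpha1. Neither was listed against 0 h at 2 h of hypoxia or at 24 h of DETA. At 24 h of hypoxia both fell in all lines against 0 h, with means of -0.82 for PFP-beta1 and -0.57 for PFP-alpha1.

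Calvin cycle counterparts of the plastid members were also read. Of 9 measured, 4 fell in all lines at 24 h of hypoxia (background 11%) and 0 rose, with means over lines of -1.75 for GAPA2 (AT1G12900), -1.39 for PRK (AT1G32060) and -1.13 for TKL1 (AT3G60750). Of 8 genes of gluconeogenesis and phosphoenolpyruvate use, 2 fell in all lines at 24 h (background 11%), PPC2 (AT2G42600), a phosphoenolpyruvate carboxylase, at a mean of -1.35 and F2KP (AT1G07110), which sets the regulator fructose 2,6-bisphosphate, at -0.58. Of 7 measured root markers none was called in all lines in any treatment against the control of the same time. At 24 h of hypoxia AKT1 (AT2G26650) was up in C13 (0.75) and WT (0.58) and PYK10 (AT3G09260) down in Mt62 (-1.79) and WT (-1.17). Against the 0 h control PYK10 fell in all lines at 24 h of hypoxia, at -1.39 in C13, -1.68 in Mt62 and -1.56 in WT (SE at most 0.46), and AKT1 rose in all lines at 2 h of DETA, at 0.76 in C13, 0.56 in Mt62 and 0.56 in WT (SE at most 0.20). Their part in the changes of the glycolysis genes was not tested. Since the table holds no levels, the absence of these markers from the shoots was not tested, and in whole shoots a change in the share of a cell type and a change in RNA per cell cannot be told apart.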

How the data were processed

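The authors deposited log2 fold changes (log base not stated, read as log2) between groups. Per the labels' design text, values were quantile normalized and batch corrected with a modified ComBat in R and Bioconductor, tested by empirical Bayes, and set to null where p was above 0.01. Scan channels and single samples were not used here, so no SD or n of single values is given. Rows were named through the probe table by locus accession (24536 rows) or symbol (1793 rows) and 8229 rows had no named gene. A gene's value is the mean of its listed rows. Columns that share a group were added or subtracted to compute unlisted differences (largest closure error 2.0e-09). A row's smallest listed value, divided by 2.58 and scaled by channels per group, bounds its standard error. Tests of computed differences used a t distribution with 60 degrees of freedom, two-sided, with Benjamini-Hochberg adjustment, and were checked on simulated tables. Of 4473 rows with computable unlisted values, 98.6% kept all of them under the row's limit, as did all 9 such member values. Named genes follow a rule: all members, with full values for calls in all 3 lines, calls against WT, turned signs and genes never listed, and up to 3 genes of other lists. Members and lists were chosen with earlier results of these data known. Python 3.11.15, numpy 2.4.6, pandas 2.3.3 and scipy 1.17.1 were used.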

Additional observations from a re-analysis of the deposited data

How the results depend on the processing

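The counts of members called in all 3 lines were recomputed with the 0 h control, with a size of at least 1, with every row of a gene listed, with probes named by accession only and with p-values adjusted over all rows. Naming by accession only changed no count. Against the control of 0 h 0 genes fell at 2 h of hypoxia, against 1 with the control of the same time, 3 fell at 24 h, against 5, and 5 fell at 2 h of DETA, against 0. The cause was not tested. A size of at least 1 left 2 genes up and 0 down at 2 h of hypoxia, 3 up and 1 down at 24 h, and 0 in both comparisons with WT. With every row listed the fall at 2 h of hypoxia was 0 and the Mt62 comparison with WT 1, both through PFK5, whose second row was never listed. After adjustment 5 genes rose at 2 h of hypoxia, and 0 members were called in C13 or Mt62 against WT. The adjusted p-values are upper limits, so a call lost in this way is not shown to be false. All DETA counts other than that against 0 h stayed at 0, at an unadjusted p of 0.01. No member passed the test of differences between lines with the 0 h control either (largest difference -0.71, ENO1 in Mt62 after 24 h of hypoxia). Of 27 means over lines with a 0 h value, 13 kept within their error, 13 moved with the same sign and 1 was reversed. That was FBA1 at 2 h of hypoxia, with 0.93 over Mt62 and WT against the control of the same time. Against 0 h it was -0.90, in Mt62 alone. Each mean is over the listed lines, which could differ between the controls, and the share of that in these shifts was not separated. Another 23 had no listed 0 h value. Taking the largest row changed none of 10 means beyond its error, nor did adding the 1 computed value. No paired analysis was possible because the table holds group differences only, and for the same reason no replicate could be left out.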
